A study of Mus musculus with 6 samples.

Results

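The DNA replication machinery was followed here through 37 genes, chosen by their role in replication and by name, of the 23746 gene loci in each deposited table. They comprise 10 genes of origin licensing, 4 of helicase activation, 8 of the polymerases and primase, 6 of the clamp and its loader, 3 of the single-strand binding protein, 2 of Okazaki fragment joining and 4 of nucleotide supply. RNA was sequenced from 2 fractions of the bone marrow of C57BL/6 mice aged 12 weeks that were wild type (WT), Diap1 +/- (Het) or Diap1 -/- (KO). Diap1 is the older name of the gene for the formin mDia1, which nucleates and elongates actin filaments. Marrow from 4 mice of a genotype was pooled, and Gr1 and Mac1 double positive myeloid cells were taken out first with magnetic beads. The lineage-negative (Lin-) fraction was then obtained by negative selection from what remained. Each genotype and fraction was thus 1 library of 1 pool, 6 libraries in all, and the labels used here do not say which part of Diap1 was removed or in which cells.

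Before a cell divides, the origin recognition complex, Cdc6 and Cdt1 load the MCM helicase onto DNA, and this licensing step is shut off once replication starts. Cdc45 and the GINS complex then switch the helicase on, DNA polymerase alpha with primase lays down short starters, and polymerases delta and epsilon extend them while held by the sliding clamp Pcna, which the RFC complex loads. Many of these genes are transcribed under control of E2F factors as cells enter S phase, and in marrow their RNA is abundant in dividing progenitors and low in granulocytes that have stopped dividing.

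The levels are FPKM, fragment numbers divided by transcript length and by the mapped total of the library. The 3 values given for a fraction are always in the order WT, Het and KO. The width of the deposited intervals implied 10390000, 10020000 and 9430000 fragments in the Lin- libraries and 11600000, 10240000 and 8630000 in the Gr1+Mac1+ libraries, and the 37 genes had between 31 and 9075 implied fragments each. Diap1 itself was at 36.0, 24.2 and 6.07 FPKM in Lin- and at 57.1, 34.1 and 4.07 in Gr1+Mac1+, in the order of its intact copies in both fractions. The 8 progenitor markers summed to 238 to 290.4 FPKM in Lin- and 100.4 to 111 in Gr1+Mac1+. Of the 7 tested, Kit, Gata2, Meis1 and Myb passed the test for a higher level in Lin-, and Cd34, Flt3 and Hlf did not. The 7 matched Gr1+Mac1+ myeloid markers summed to 55.1, 192 and 64.0 in Lin- and 2428 to 2712 in Gr1+Mac1+. The Het Lin- library stood apart, since its 11 neutrophil granule genes summed to 8149 FPKM against 51.6 for WT and 68.8 for KO. Erythroid markers (13 genes) summed to 4341 to 5351 in Lin- and 2979 to 5095 in Gr1+Mac1+, and Hbb-b1, a beta globin gene, led the sum in Gr1+Mac1+. Gene by gene, 9 of the 13 erythroid markers passed as higher in Lin- and 3 as higher in Gr1+Mac1+, with a median log2 ratio of 2.45. All 6 megakaryocyte markers (median 2.29) and 4 of 5 tested stromal and endothelial markers (median 4.23) also passed as higher in Lin-. Passing as higher in Gr1+Mac1+ were 9 of 10 B lineage (median -3.34) and 6 of 8 T and NK markers (-1.23). The same held for all 5 promyelocyte (-3.80) and all 6 monocyte markers (-3.28). No marker of these lists was listed at 0 in any library.

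Every one of the 37 replication genes was higher in the Lin- fraction than in the Gr1+Mac1+ fraction. Their median level was 76.2, 75.1 and 71.7 FPKM in the Lin- libraries and 28.7, 29.1 and 28.9 in the Gr1+Mac1+ libraries, and together they held 0.58 to 0.616% of the summed FPKM in Lin- and 0.23 to 0.248% in Gr1+Mac1+. For each gene the lowest Lin- library lay above the highest Gr1+Mac1+ library, which held for 54.1% of all loci tested. In limma on log2(FPKM + 1), with the pool as a block and Benjamini-Hochberg adjustment over 11489 loci, all 37 passed an adjusted p of 0.05 as higher in Lin-, where 51.6% of all loci did. None was higher in Gr1+Mac1+, where 30.4% of all loci were, and none had a negative ratio. The median log2 ratio of the 37 was 1.30 and ranged from 0.38 for Cdc45 to 1.89 for Pold2, with a largest adjusted p of 0.00642. Each pool is of another genotype, and the block takes out what a pool shares across the fractions. The spread behind these p-values thus holds genotype effects that differ between the fractions, as well as noise. Nothing here measures the spread between mice of 1 genotype. The erythroid and megakaryocyte markers above differed between the fractions by more than the 37 in their medians. The part of these cell types, and of the others above, in the ratios of the 37 was not tested. In such bulk samples, fewer cells of a type and less RNA per cell cannot be told apart.

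The median of all loci was itself shifted by 0.33 on the log2 scale toward Lin-, beside a share of the summed FPKM held by the 10 most abundant genes of 8.72 to 10.5% in Lin- and 25.1 to 27.8% in Gr1+Mac1+. With each library centred on the median ratio of all loci, the loci called for Lin- went from 5931 to 4489 (39.1%) and those called for Gr1+Mac1+ from 3491 to 4483 (39%). On that scale 34 of the 37 replication genes were still called higher in Lin-, with a median log2 ratio of 0.97. The 3 that no longer passed were Cdc45 at 0.06 (adjusted p = 0.495), Rfc1 at 0.11 (adjusted p = 0.144) and Rfc2 at 0.16 (adjusted p = 0.054). With the Het pool left out, whose Lin- library carries granule RNA, and without centring, all 37 passed, with a median of 1.26. Within pools, the median log2 ratio of the 37 was 1.25 for WT, 1.30 for Het and 1.31 for KO.

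**Figure D1:**
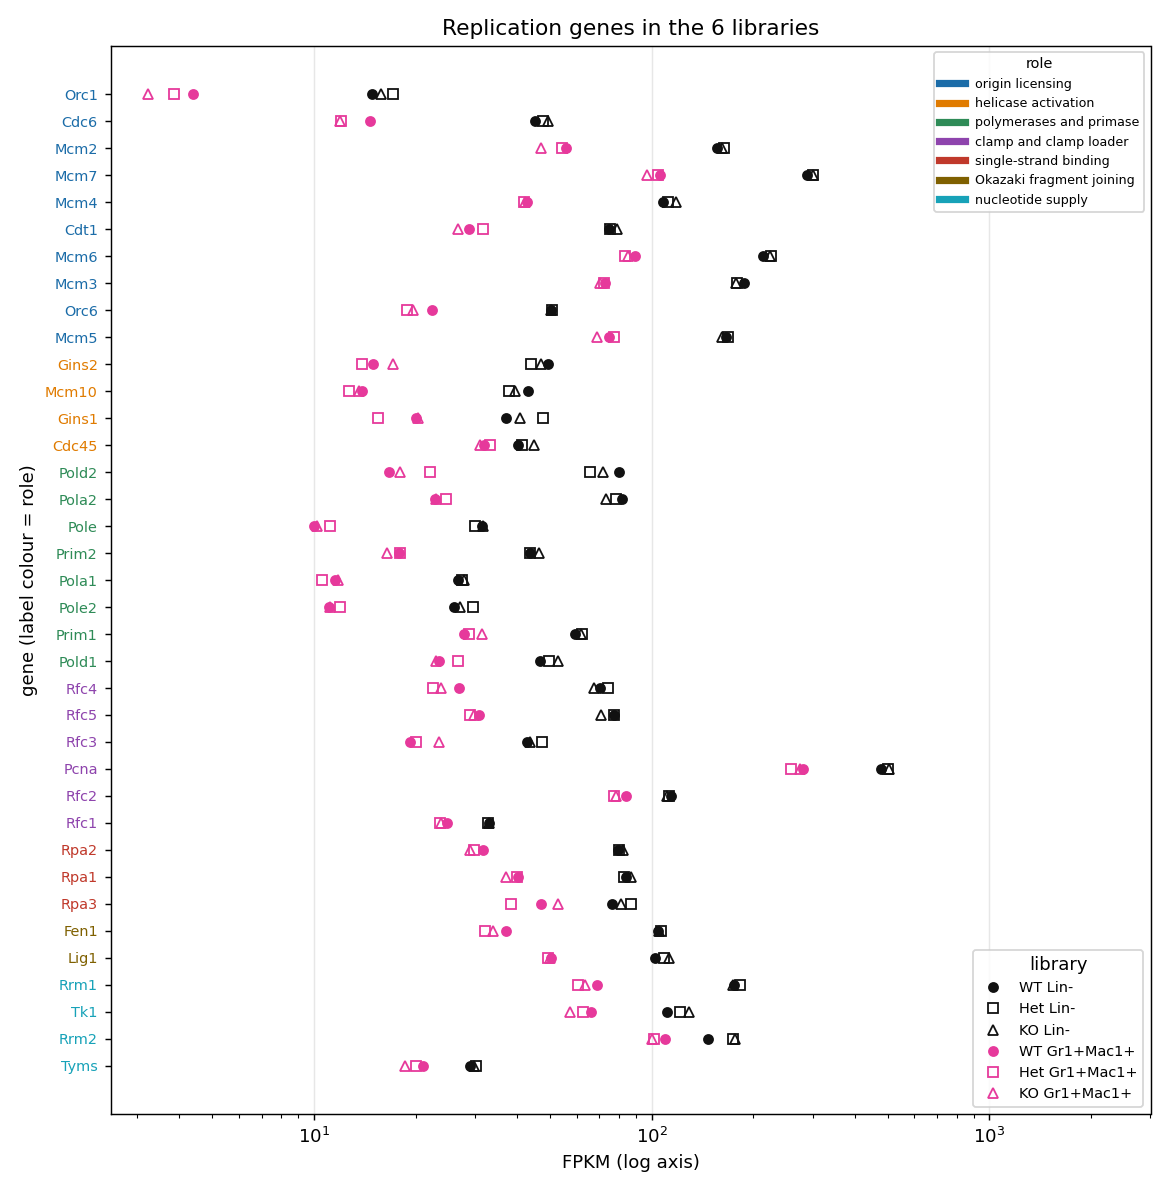
FPKM (log axis) of the 37 replication genes in each of the 6 libraries, 1 point per library, ordered by role and, within a role, by the ratio between fractions. The 3 black Lin- points of a gene lie to the right of its 3 pink Gr1+Mac1+ points in every row.

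**Figure D2:**
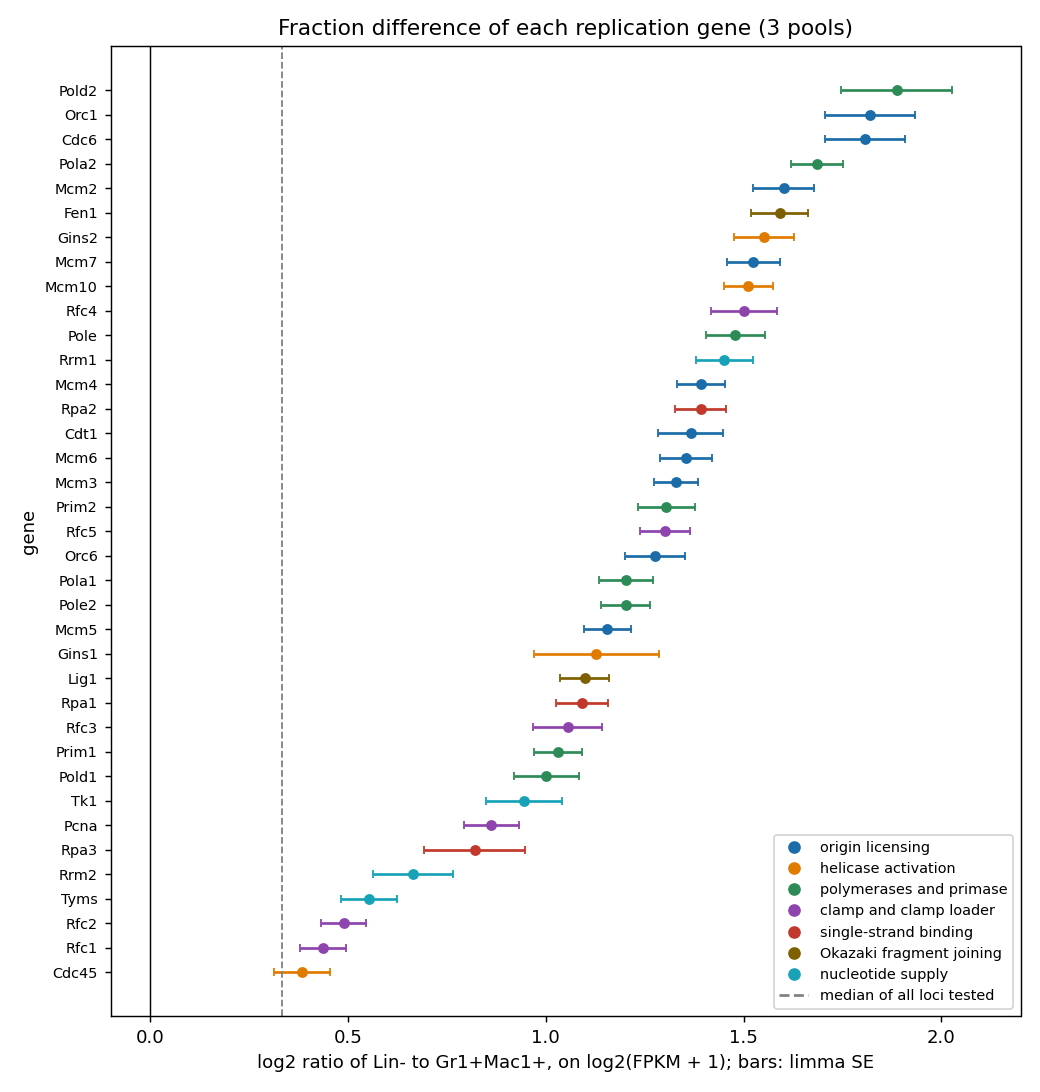
Log2 ratio of Lin- to Gr1+Mac1+ on log2(FPKM + 1) for each replication gene, with the standard error from limma over 3 pools, coloured by role. The genes run from Cdc45 at 0.38 to Pold2 at 1.89, and the dashed line is the median of all loci tested at 0.33.

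Origin licensing genes had a median log2 ratio of 1.38 between the fractions. The widest gap was that of Orc1 (chr4:108579454-108614831, mm10, as are all gene positions below), the ATPase subunit that binds the origin first. It had 14.9, 17.2 and 15.9 FPKM in Lin- and 4.39, 3.84 and 3.23 in Gr1+Mac1+, the lowest level of the 37 genes in each library. That is a log2 ratio of 1.82 (SE 0.11, n = 3 pools, limma adjusted p = 0.000198). Orc6 (chr8:85299632-85308279), a small subunit of the same complex, was 50.4, 50.9 and 50.2 in Lin- and 22.4, 18.8 and 19.7 in Gr1+Mac1+. Orc6 was thus 2.97 to 3.39 times Orc1 in Lin- and 4.9 to 6.1 times in Gr1+Mac1+, ranges that do not overlap.

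The loading factor Cdc6 (chr11:98907889-98923942), which works with the origin recognition complex, stood at 45.1, 47.8 and 49.4 FPKM in Lin- and 14.6, 12.0 and 12.0 in Gr1+Mac1+. Its log2 ratio of 1.81 (SE 0.10, adjusted p = 0.000159) was the third widest of the 37 after Pold2 and Orc1. Cdt1 (chr8:122568015-122573130), which brings the helicase to the origin, was 74.8, 75.1 and 78.8 in Lin- and 28.7, 31.7 and 26.6 in Gr1+Mac1+, with a log2 ratio of 1.37. For both genes the 3 Lin- values lay close together and far above the 3 Gr1+Mac1+ values.

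The 6 subunits of the MCM2-7 helicase, which form a ring in equal numbers in the loaded enzyme, were among the most abundant of these RNAs. Mcm7 (chr5:138164589-138171862) led them with 289, 299.9 and 299.8 FPKM in Lin- and 106, 104 and 96.9 in Gr1+Mac1+. Mcm6 (chr1:128331591-128359656) followed with 214, 226 and 225 and 89.0, 83.6 and 85.4. Both kept these places in all 6 libraries. At the other end, Mcm2 (chr6:88883474-88898780) was 156, 164 and 162 in Lin- and 55.7, 54.2 and 47.2 in Gr1+Mac1+. Mcm4 (chr16:15623897-15637400) was the lowest of the ring in all 6 libraries, with 108, 112 and 118 and 42.7, 42.0 and 42.1. Mcm7 was 2.54 to 2.68 times Mcm4 in Lin- and 2.3 to 2.48 times in Gr1+Mac1+, so both ends of the ring kept their order while each subunit differed between the fractions.

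The middle of the ring was less fixed. Mcm3 (chr1:20803014-20820213) was 188, 179 and 178 in Lin- and 72.6, 72.3 and 70.3 in Gr1+Mac1+. Mcm5 (chr8:75109528-75128439) was 167, 168 and 162 and 75.0, 77.6 and 69.0. Mcm3 was above Mcm5 in all 3 Lin- libraries, and the deposited intervals of the pair overlapped in all 3 Gr1+Mac1+ libraries. Mcm5 had the smallest gap between fractions of the licensing genes, with a log2 ratio of 1.16 (SE 0.059, adjusted p = 0.000135), against 1.60 (SE 0.077) for Mcm2, the largest of the ring.

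Since all these genes were higher in Lin-, their promoters were read for short motifs. In the RefSeq table (GRCm38.p6) 31 of the 37 had a promoter window, taken here as the 250 bases before a gene's start as RefSeq places it, and Mcm4, Gins1, Gins2, Prim2, Pole and Rfc2 had none. Searched on both strands were the E2F words TTTCCCGC, TTTCGCGC, TTTGGCGC and TTTGCCGC, which can overlap one another on opposite strands, and CCAAT (bound by NF-Y), GGGCGG (bound by Sp1) and TTTGAA (the core of the CHR element of late cell cycle genes). An E2F word stood in 7 of the 31 promoters (22.6%), and in 583 of the 27025 genes of the table (2.16%). CCAAT stood in 64.5% of the 31 and 37.5% of all, GGGCGG in 71% and 35.4%, and TTTGAA in 12.9% and 18.3%. Such shares were not limited to the 31. Of 27 other fork and origin genes with a window, 18.5% held an E2F word, 74.1% GGGCGG and 40.7% CCAAT, and of 17 mitosis genes 5.88%, 70.6% and 82.4% did. A match is a description of the sequence and not a shown binding site.

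The sequences that hold the words are shown because 5 of the 7 genes (Orc1, Cdc6, Mcm5, Mcm6 and Mcm7) belong to the licensing step; the others are Pola1 and Rfc3. Each is read 5′ to 3′ on the gene's strand, with the E2F words in capitals. Mcm5 and Mcm6 carry 2 words that overlap on opposite strands, so that their capitals run together, and Mcm6 carries another word nearer its start. Positions are those of the printed bases on GRCm38.p6. The RefSeq start need not be that of the deposited locus: the bases shown for Cdc6 lie inside its deposited locus. A stretch around the words also touches an annotated exon for Cdc6, Orc1, Mcm7 and Rfc3.
Orc1 (chr4:108579416-108579445, plus strand): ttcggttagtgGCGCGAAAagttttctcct
Cdc6 (chr11:98908002-98908031, plus strand): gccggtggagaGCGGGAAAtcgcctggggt
Mcm5 (chr8:75109347-75109376, plus strand): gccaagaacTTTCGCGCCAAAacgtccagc
Mcm6 (chr1:128359741-128359820, minus strand): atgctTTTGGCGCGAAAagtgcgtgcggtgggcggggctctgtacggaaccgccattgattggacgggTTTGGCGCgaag
Mcm7 (chr5:138172030-138172059, minus strand): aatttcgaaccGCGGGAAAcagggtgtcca
Pola1 (chrX:93632275-93632304, minus strand): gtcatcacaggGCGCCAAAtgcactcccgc
Rfc3 (chr5:151651209-151651238, minus strand): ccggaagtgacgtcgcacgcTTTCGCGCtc

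The genes that carry a word did not share one size of change between the fractions. Orc1 and Cdc6 were near the top of the 37 with log2 ratios of 1.82 and 1.81. Mcm5, Pola1 and Rfc3 lay below the median of the 37, with 1.16, 1.20 and 1.06. Pold2, which had the widest gap of all, carried none of the 4 words in its window.

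Genes of helicase activation held both a wide gap and the narrowest one. Gins2 (chr8:120581266-120589075), a subunit of the GINS complex, was 49.3, 43.9 and 47.0 FPKM in Lin- and 14.9, 13.9 and 17.1 in Gr1+Mac1+, with a log2 ratio of 1.55 (SE 0.076, adjusted p = 0.000127). Of its 3900 annotated exonic bases 2758 are shared with Gse1 on the opposite strand, and whether the counting used strand is not stated. Gse1 was 32.2, 33.7 and 34.4 in Lin- and 14.8, 15.4 and 11.8 in Gr1+Mac1+, the same direction, and its part in the Gins2 values was not tested. Gins1 (chr2:150909594-150931280), another subunit of the complex, was 37.2, 47.6 and 40.6 and 20.0, 15.5 and 20.4. It had the largest SE of the 37, 0.16 beside a log2 ratio of 1.13 (adjusted p = 0.00236).

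Mcm10 (chr2:4990724-5012791), which helps the activated helicase start to unwind, was 43.0, 37.8 and 39.3 in Lin- and 13.8, 12.7 and 13.6 in Gr1+Mac1+, a log2 ratio of 1.51. Cdc45 (chr16:18780447-18811972), the partner that joins MCM2-7 and GINS in the moving helicase, behaved otherwise. Its FPKM was 40.3, 41.4 and 44.9 in Lin- and 31.9, 33.3 and 31.0 in Gr1+Mac1+, ranges that do not overlap but lie close. The log2 ratio of 0.38 (SE 0.072, adjusted p = 0.00642) was near the shift of all loci. Set against each other, Gins2 was 1.05 to 1.23 times Cdc45 in Lin- and 0.418 to 0.551 times in Gr1+Mac1+.

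Polymerase and primase genes had a median log2 ratio of 1.25. Pold2 (chr11:5872180-5878256), the accessory subunit of DNA polymerase delta, had the widest gap of the 37. It was 79.9, 65.9 and 71.7 FPKM in Lin- and 16.7, 22.1 and 18.0 in Gr1+Mac1+, a log2 ratio of 1.89 (SE 0.14, adjusted p = 0.000313). The catalytic subunit Pold1 (chr7:44532744-44548815) had the smallest gap of the 8, with 46.9, 49.7 and 52.9 in Lin- and 23.4, 26.8 and 23.0 in Gr1+Mac1+ and a log2 ratio of 1.0 (SE 0.081). As a result the order of the pair turned. Pold2 was above Pold1 in all 3 Lin- libraries and below it in all 3 Gr1+Mac1+ libraries, with deposited intervals apart in each of the 6, and the ratio of Pold1 to Pold2 was 0.587 to 0.754 in Lin- and 1.21 to 1.4 in Gr1+Mac1+.

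DNA polymerase alpha and primase work as one complex of 4 subunits. Pola2 (chr19:5940543-5964206), its regulatory subunit, was 81.6, 78.3 and 73.3 in Lin- and 22.9, 24.6 and 23.0 in Gr1+Mac1+, a log2 ratio of 1.69 (SE 0.065). Prim1 (chr10:128015215-128030030), the catalytic primase subunit, was 59.2, 62.1 and 61.8 and 27.9, 28.9 and 31.4, a log2 ratio of 1.03 (SE 0.061). Pola2 was the most abundant of the complex in Lin-, and Prim1 in Gr1+Mac1+, where their intervals overlapped in the Het library. The large primase subunit Prim2 (chr1:33453811-33669758) was 43.6, 43.7 and 46.4 and 17.8, 18.0 and 16.5. The catalytic subunit Pola1 (chrX:93304766-93632155) was the least abundant in all 6 libraries, with 26.6, 27.5 and 27.9 and 11.6, 10.6 and 11.8.

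The polymerase epsilon pair stayed near equal in level. Pole (chr5:110286319-110337453), the catalytic subunit of leading strand synthesis, was 31.4, 29.9 and 31.6 in Lin- and 10.04, 11.2 and 10.3 in Gr1+Mac1+. Its partner Pole2 (chr12:69201779-69228190) was 25.9, 29.6 and 27.1 and 11.1, 12.0 and 11.2. Pole was the higher one in Lin-, with intervals apart in WT and KO, and in Gr1+Mac1+ the intervals of the pair overlapped in all 3 libraries.

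The clamp Pcna and its loader had a lower median log2 ratio, 0.96. Pcna (chr2:132249286-132253180) was the most abundant of the 37 in every library, with 478, 499.6 and 506 FPKM in Lin- and 281, 259 and 276 in Gr1+Mac1+, a log2 ratio of 0.86 (SE 0.069, adjusted p = 0.000386). The annotation names 2 Pcna pseudogenes (Pcna-ps1 and Pcna-ps2). Their sequences were not compared with Pcna, and their part in the Pcna values was not tested. Within the RFC complex the subunits moved unequally. Rfc4 (chr16:23113948-23127730) was 70.6, 74.2 and 67.6 and 26.9, 22.6 and 23.8, the widest gap, with a log2 ratio of 1.5 (SE 0.083). Rfc1 (chr5:65261852-65335639), the large subunit, was 33.0, 32.9 and 33.1 and 24.8, 23.6 and 23.8, the narrowest, with 0.44 (SE 0.058, adjusted p = 0.00197).

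Rfc5 (chr5:117379145-117389023), another small subunit of the loader, was 77.3, 77.4 and 70.7 in Lin- and 30.7, 29.1 and 29.7 in Gr1+Mac1+. Rfc3 (chr5:151642824-151651208) was 42.7, 47.3 and 43.7 and 19.3, 20.1 and 23.5. Rfc1 was the lowest subunit in all Lin- libraries, whereas Rfc3 was the lowest in all Gr1+Mac1+ libraries. In Gr1+Mac1+ the intervals of Rfc3 overlap those of both Rfc1 and Rfc4 in Het and KO, and are apart from both only in WT. The ratio of Rfc1 to Rfc3 was 0.694 to 0.774 in Lin- and 1.01 to 1.29 in Gr1+Mac1+. Rfc2 (chr5:134582690-134598328) was the highest RFC subunit throughout, with 114, 112 and 111 and 83.8, 77.3 and 78.5 and a log2 ratio of 0.49 (SE 0.057, adjusted p = 0.00127). It shares 952 of its 4995 exonic bases with Lat2 on the opposite strand, and Lat2 went the other way, at 6.55, 7.60 and 8.50 in Lin- and 26.1, 21.9 and 22.7 in Gr1+Mac1+. The part of that overlap in the Rfc2 values was not tested.

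**Figure D3:**
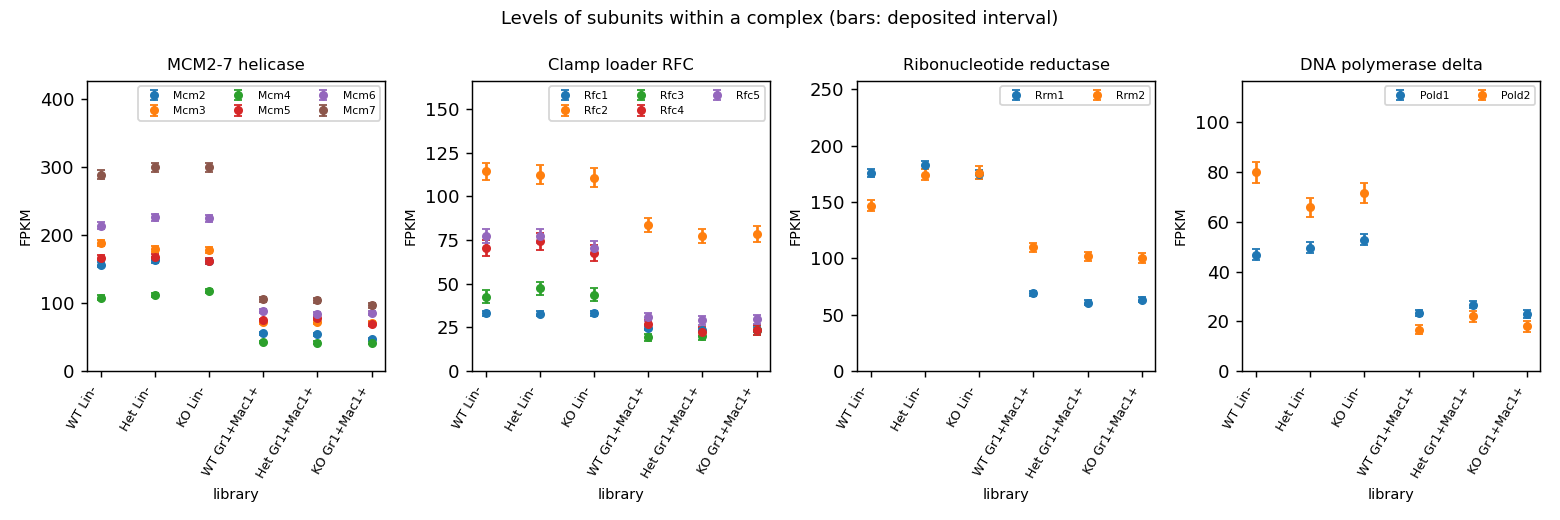
FPKM of the subunits of the MCM2-7 helicase, the clamp loader RFC, ribonucleotide reductase and DNA polymerase delta in the 6 libraries, with the deposited intervals as bars. Mcm7 is the highest and Mcm4 the lowest of the ring in every library, while Pold1 and Pold2 trade places between Lin- and Gr1+Mac1+.

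The single-strand binding protein RPA, which coats unwound DNA, is built of equal numbers of 3 subunits. Rpa2 (chr4:132768360-132778746) was 79.4, 80.3 and 82.4 FPKM in Lin- and 31.8, 29.7 and 28.95 in Gr1+Mac1+, a log2 ratio of 1.39 (SE 0.065). Rpa3 (chr6:8255936-8259141), the smallest subunit, was 76.2, 86.8 and 81.4 and 46.9, 38.2 and 52.9, a log2 ratio of 0.82 (SE 0.13, adjusted p = 0.00349). Rpa1 (chr11:75300259-75348383), the large subunit, lay between with 84.2, 82.6 and 86.8 and 40.3, 40.0 and 37.2. In Lin- the highest subunit was only 1.07 to 1.11 times the lowest, with overlapping neighbours in each library, and in Gr1+Mac1+ it was 1.34 to 1.83 times. Rpa3 varied most between the Gr1+Mac1+ libraries of all 37, its highest value being 1.38 times its lowest.

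Both genes of Okazaki fragment joining were higher in Lin-. Fen1 (chr19:10199139-10203943), which trims the flap at the end of a fragment, was 104, 107 and 105 and 37.1, 32.2 and 33.9, a log2 ratio of 1.59 (SE 0.071). Lig1 (chr7:13277313-13311427), which seals the nick, was 102, 109 and 112 and 50.2, 49.3 and 50, a log2 ratio of 1.10 (SE 0.061). Fen1 shares 2038 of its 2422 exonic bases with genes on the opposite strand (Tmem258 and Gm10143). The levels of these 2 genes were not read, and the part of the overlap in the Fen1 values was not tested. In all, 13 of the 37 share exonic bases with another gene. Among them, Mcm7 shares 385 of 2962 with Ap4m1 and Cops6, and Rfc4 shares 175 of 1307 with Eif4a2. The part of these overlaps in the order of the subunits was not tested. The 24 genes without such an overlap were all called higher in Lin-, with a median log2 ratio of 1.25, and 23 of them on the centred scale.

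Nucleotide supply had the smallest median log2 ratio of the role groups, 0.80. Rrm1 (chr7:102441695-102469771), the large subunit of ribonucleotide reductase, was 176, 183 and 175 FPKM in Lin- and 69.1, 60.6 and 63.6 in Gr1+Mac1+, a log2 ratio of 1.45 (SE 0.072). The small subunit Rrm2 (chr12:24708254-24714146), which is degraded outside S phase, was 147, 174 and 176 and 109.9, 102 and 100.2, a log2 ratio of 0.66 (SE 0.10, adjusted p = 0.00312). Rrm1 was therefore 0.99 to 1.2 times Rrm2 in Lin- and 0.594 to 0.634 times in Gr1+Mac1+, where their intervals were apart in all 3 libraries.

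Thymidylate synthase Tyms (chr5:30058200-30073625), which makes dTMP from dUMP, was 28.9, 30.3 and 29.7 in Lin- and 21.1, 20.1 and 18.6 in Gr1+Mac1+. Its log2 ratio was 0.55 (SE 0.071, adjusted p = 0.00175), and the annotation names 1 Tyms pseudogene. Tk1 (chr11:117815519-117826014), the salvage kinase for thymidine, was 111, 121 and 129 and 66.1, 62.5 and 57.5, a log2 ratio of 0.94 (SE 0.095). Neither gene's ranges overlapped between the fractions.

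Within a fraction the replication genes varied little. Across the 3 Lin- libraries the highest value of a gene was a median of 1.06 times its lowest, and across the Gr1+Mac1+ libraries 1.11 times. Between the fractions, the lowest Lin- value was a median of 2.3 times the highest Gr1+Mac1+ value. Cdc45 was the closest, at 1.21 times, and Orc1 the farthest, at 3.39 times.

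Other genes of replication, taken from lists of pathway members, also leaned toward Lin-. Of 35 tested genes of replication forks and origins, 31 were called higher in Lin- and 1 in Gr1+Mac1+, with a median log2 ratio of 0.88. The highest were Orc2 at 2.32 and Orc5 at 2.06, further subunits of the origin recognition complex, and the helicase Recql4 at 2.30. The exception was Pold4, the small subunit of polymerase delta, at 9.95, 13.7 and 11.0 FPKM in Lin- and 35.3, 34.7 and 37.5 in Gr1+Mac1+ and a log2 ratio of -1.56 (SE 0.11, adjusted p = 0.000281). The next lowest, Mcmbp at -0.07 (adjusted p = 0.371) and the topoisomerase Top2a at 0.10 (adjusted p = 0.316), did not pass. On the centred scale 27 were called toward Lin- and 3 toward Gr1+Mac1+, with a median of 0.55; the 3 were Pold4 at -1.89, Mcmbp at -0.40 (adjusted p = 0.00574) and Top2a at -0.23 (adjusted p = 0.04996). Pold2 and Pold4, subunits of the same polymerase, were thus called in opposite directions on both scales.

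Among 22 other nucleotide synthesis genes, 19 passed the test toward Lin- and 2 toward Gr1+Mac1+, and their median log2 ratio of 1.74 was above that of the 37. Mthfd1, a folate enzyme that feeds purine and thymidylate synthesis, led with 249, 212 and 219 FPKM in Lin- and 19.5, 17.2 and 14.5 in Gr1+Mac1+ (log2 ratio 3.66). Cad and Ppat, which start the pyrimidine and purine pathways, followed with 2.99 and 2.36. Samhd1, which breaks down dNTPs, went the other way, at 26.0, 31.5 and 25.5 in Lin- and 129, 119 and 132 in Gr1+Mac1+ (log2 ratio -2.16, adjusted p = 0.000134). So did Rrm2b, the p53-inducible small subunit of ribonucleotide reductase, at 1.77, 1.74 and 1.89 and 4.47, 4.46 and 4.54 (log2 ratio -0.97, adjusted p = 0.00048). The third lowest, the salvage kinase Dck, had a log2 ratio of 0.01 (adjusted p = 0.938). On the centred scale 17 were called toward Lin- and 3 toward Gr1+Mac1+, with a median of 1.41, and the third of these was Dck at -0.32 (adjusted p = 0.0294).

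Of 10 genes that couple chromatin to replication, 8 were higher in Lin- and none in Gr1+Mac1+, with a median of 0.89. The histone chaperones Chaf1b, Nasp and Asf1a led with 1.86, 1.38 and 1.26. Asf1b at -0.12 (adjusted p = 0.177) and Fbxo5 at 0.18 (adjusted p = 0.0716) did not pass, and Slbp, the histone mRNA binding protein, was the lowest that did, at 0.75. On the centred scale the counts were 8 and 1, with a median of 0.56, and Asf1b was the 1 called toward Gr1+Mac1+, at -0.45 (adjusted p = 0.00377).

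The genes that control entry into S phase were divided. Of 27 tested E2F, RB and G1/S control genes, 16 passed toward Lin- and 8 toward Gr1+Mac1+, with a median of 0.42, and 10 and 10 did so on the centred scale. Ccne1, the cyclin E1 gene, was 74.6, 75.3 and 72.3 FPKM in Lin- and 19.3, 14.0 and 14.0 in Gr1+Mac1+ (log2 ratio 2.18), and E2f4 and E2f6 followed with 2.03 and 1.87. At the other end were Cdkn2d and Cdkn1a, inhibitors of cyclin-dependent kinases, with -2.96 and -1.59. E2f2, an activator of the E2F family, was lower in Lin- too, at 14.3, 19.5 and 20.1 against 60.6, 57.3 and 55.7 (log2 ratio -1.65, adjusted p = 0.000402).

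Mitosis genes differed less between the fractions than the replication genes did in their median, 0.43 against 1.30, a difference that was not tested. Among 20 such genes, 16 passed toward Lin- and 1 toward Gr1+Mac1+, against 6 and 1 on the centred scale. The 20 summed to 1181, 1218 and 1217 FPKM in Lin- and to 940.5, 873 and 883 in Gr1+Mac1+. Both fractions thus held much RNA of mitosis genes. Ccnb1, cyclin B1, had the widest gap, at 75.1, 79.2 and 76.7 FPKM in Lin- and 37.6, 37.4 and 34.8 in Gr1+Mac1+ (log2 ratio 1.05), followed by Kif20a at 0.83 and Plk1 at 0.74. The spindle gene Nusap1 was higher in Gr1+Mac1+, 34.9, 33.8 and 33.3 against 23.5, 27.4 and 28.7 in Lin- (log2 ratio -0.35, adjusted p = 0.0187). Ube2c at 0.11 and Cenpf at 0.12 did not pass (adjusted p = 0.333 and 0.206).

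**Figure D4:**
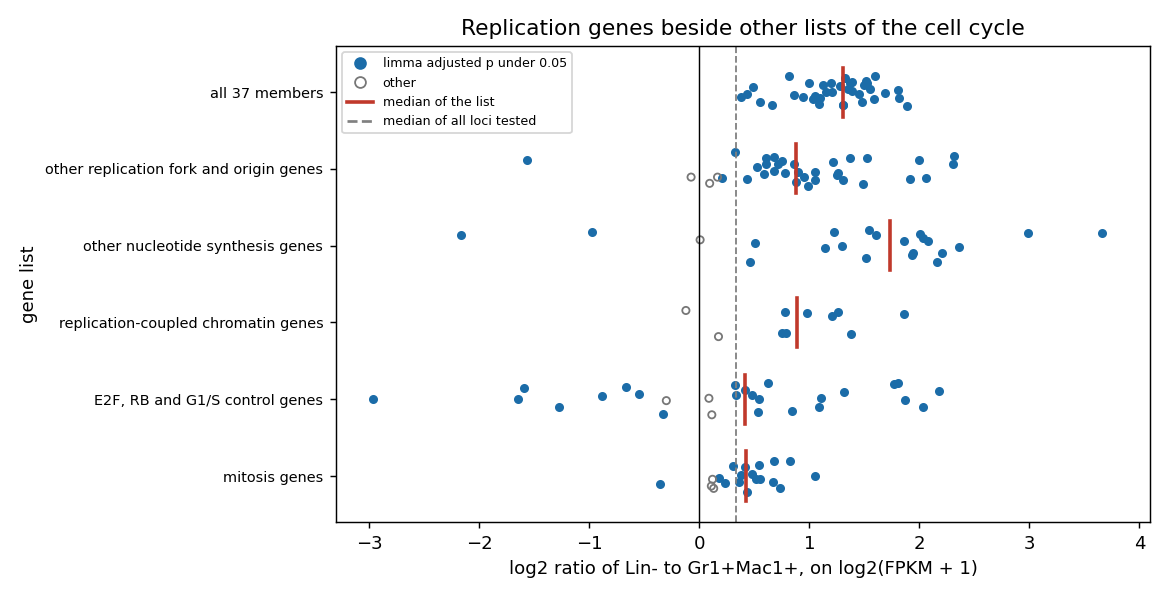
Log2 ratio of Lin- to Gr1+Mac1+ for the 37 replication genes and 5 other gene lists, 1 point per gene, filled where limma's adjusted p is under 0.05, with the list's median as a red line. The 37 lie entirely above 0 around a median of 1.30, nucleotide synthesis genes reach highest around 1.74, and mitosis genes gather around 0.43.

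Between genotypes the log2 ratios of the replication genes to WT lay between -0.35 and 0.39. With 1 library a genotype and fraction there is no test, so a gene was counted by size. It had to differ by 2-fold or more in FPKM + 1, reach 5 FPKM in 1 of the 2 libraries, and have deposited intervals apart. None of the 37 met it in any of the 4 comparisons with WT. The share of all loci that did was 0.137% higher and 0.0366% lower for KO in Lin-, 0.0444% and 0.0978% for KO in Gr1+Mac1+, 1.28% and 0.064% for Het in Lin-, and 0.0356% and 0.0978% for Het in Gr1+Mac1+. With shares this small, finding none among 37 genes does not set them apart from all loci. Below, genes are described by whether the deposited intervals of the 2 libraries are apart, at any size. These intervals come from 1 library each and hold no spread between pools. The errors (±) on the log2 ratios between genotypes are read from them and are called counting errors here. The widths need not follow fragment numbers alone: Gins1 in Gr1+Mac1+ had 20.0, 15.5 and 20.4 FPKM with 96, 180 and 31 implied fragments. The 37 are deeply covered, with a median counting error of 0.046 in KO Lin- and 0.070 in KO Gr1+Mac1+ against 0.097 and 0.10 over all loci, so their intervals part more readily. Het and KO are both set against the same WT library of a fraction.

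In KO Lin- cells the 37 had a median log2 ratio to WT of 0.05, with 26 above 0 and 11 below, where the median of all loci was 0.00. Intervals were apart for 8 as higher, against 6.15% of all loci, and for 3 as lower, against 7.38%. Rrm2 (0.26 ± 0.032) and Tk1 (0.21 ± 0.048), both of nucleotide supply, had the highest ratios, followed by Pold1 (0.17 ± 0.044). The others that were higher were Lig1 at 0.13 ± 0.033, Cdc6 at 0.13 ± 0.04, Mcm4 at 0.12 ± 0.029, Pcna at 0.08 ± 0.025 and Mcm6 at 0.07 ± 0.023. Lower were Pold2 at -0.15 ± 0.054, Pola2 at -0.15 ± 0.053 and Mcm3 at -0.08 ± 0.025. The third lowest ratio was that of Rfc5, -0.13 ± 0.053, with overlapping intervals.

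The 22 other nucleotide synthesis genes leaned the other way in KO Lin-, with a median of -0.11, 1 higher and 10 lower by their intervals. The 7 progenitor markers had a median of 0.20 in the same comparison, 7 of 7 above 0. The 13 erythroid markers had 0.04, with 6 higher and 2 lower by their intervals. The 6 monocyte markers had 0.45, with 4 higher, and the 6 megakaryocyte markers -0.42, with 4 lower. The part of cell makeup in these ratios was not tested.

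In KO Gr1+Mac1+ cells the 37 had a median of -0.06, with 10 above 0 and 27 below, where all loci had 0.01. No gene was higher by its intervals, against 5.26% of all loci, and 7 were lower, against 5.57%. Of these 7, 4 are licensing genes: Cdc6 at -0.27 ± 0.07, Mcm2 at -0.23 ± 0.044, Mcm7 at -0.13 ± 0.038 and Mcm5 at -0.12 ± 0.037. The other 3 supply nucleotides: Tk1 at -0.20 ± 0.066, Rrm2 at -0.13 ± 0.039 and Rrm1 at -0.12 ± 0.035. All 10 licensing genes and all 4 nucleotide supply genes had ratios below 0, whereas 6 of the 8 polymerase and primase genes were above 0. The lowest ratio, that of Orc1 (-0.35 ± 0.14), and the highest, those of Rfc3 (0.27 ± 0.12), Gins2 (0.18 ± 0.15) and Rpa3 (0.17 ± 0.12), came with overlapping intervals.

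Beside these ratios, all 13 erythroid markers were lower in KO Gr1+Mac1+ by their intervals, with a median of -0.86, and their sum went from 5095 FPKM in WT to 2979 in KO. The 5 promyelocyte markers were all higher, with a median of 0.25, and 9 of 11 neutrophil granule genes (0.09) and 3 of 5 stromal and endothelial markers (0.61) were higher too. The 20 mitosis genes had a median of -0.06, 4 of them lower and none higher by their intervals. The part of these marker differences in the lower licensing and nucleotide supply levels was not tested.

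In Het Lin- cells, whose library carries granule RNA, the 37 had a median of 0.05, with 28 above 0 and 9 below. Intervals were apart for 3 as higher, against 8.39% of all loci, namely Gins1 at 0.35 ± 0.12, Rrm2 at 0.25 ± 0.031 and Mcm6 at 0.08 ± 0.023. They were apart for 2 as lower, against 6.21%, namely Pold2 at -0.27 ± 0.055 and Mcm10 at -0.18 ± 0.047. Orc1 was the third highest at 0.19 ± 0.079 and Gins2 the third lowest at -0.16 ± 0.088, both with overlapping intervals. All 11 neutrophil granule genes were higher in this library, with a median of 6.53. Also higher by their intervals were 6 of 6 megakaryocyte markers (median 0.51), 4 of 5 stromal and endothelial (0.90), 4 of 5 promyelocyte (0.71) and 4 of 6 monocyte markers (0.72). The part of these cell types in the ratios of the 37 was not tested.

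In Het Gr1+Mac1+ cells the median was -0.07, with 11 above 0 and 26 below. Higher by the intervals were Pold2 at 0.39 ± 0.10 and Pold1 at 0.19 ± 0.057, 2 genes, against 8.25% of all loci. Lower were 5, against 8.49%: Cdc6 at -0.26 ± 0.067, Fen1 at -0.20 ± 0.063, Rrm1 at -0.19 ± 0.034, Pcna at -0.12 ± 0.032 and Rrm2 at -0.11 ± 0.037. The lowest ratios were those of Gins1 (-0.35 ± 0.17) and Rpa3 (-0.29 ± 0.12), and the third highest that of Cdt1 (0.14 ± 0.067), all with overlapping intervals. The 13 erythroid markers were again all lower, with a median of -0.51. By their intervals, 7 of 11 neutrophil granule genes were lower and 2 higher (median -0.07). Monocyte markers were split too, with 4 of 6 lower and 2 higher (-0.18). Higher were 5 of 10 B lineage (0.19), 4 of 5 promyelocyte (0.08) and 3 of 5 stromal and endothelial markers (0.67). The part of these differences in the ratios was not tested.

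**Figure D5:**
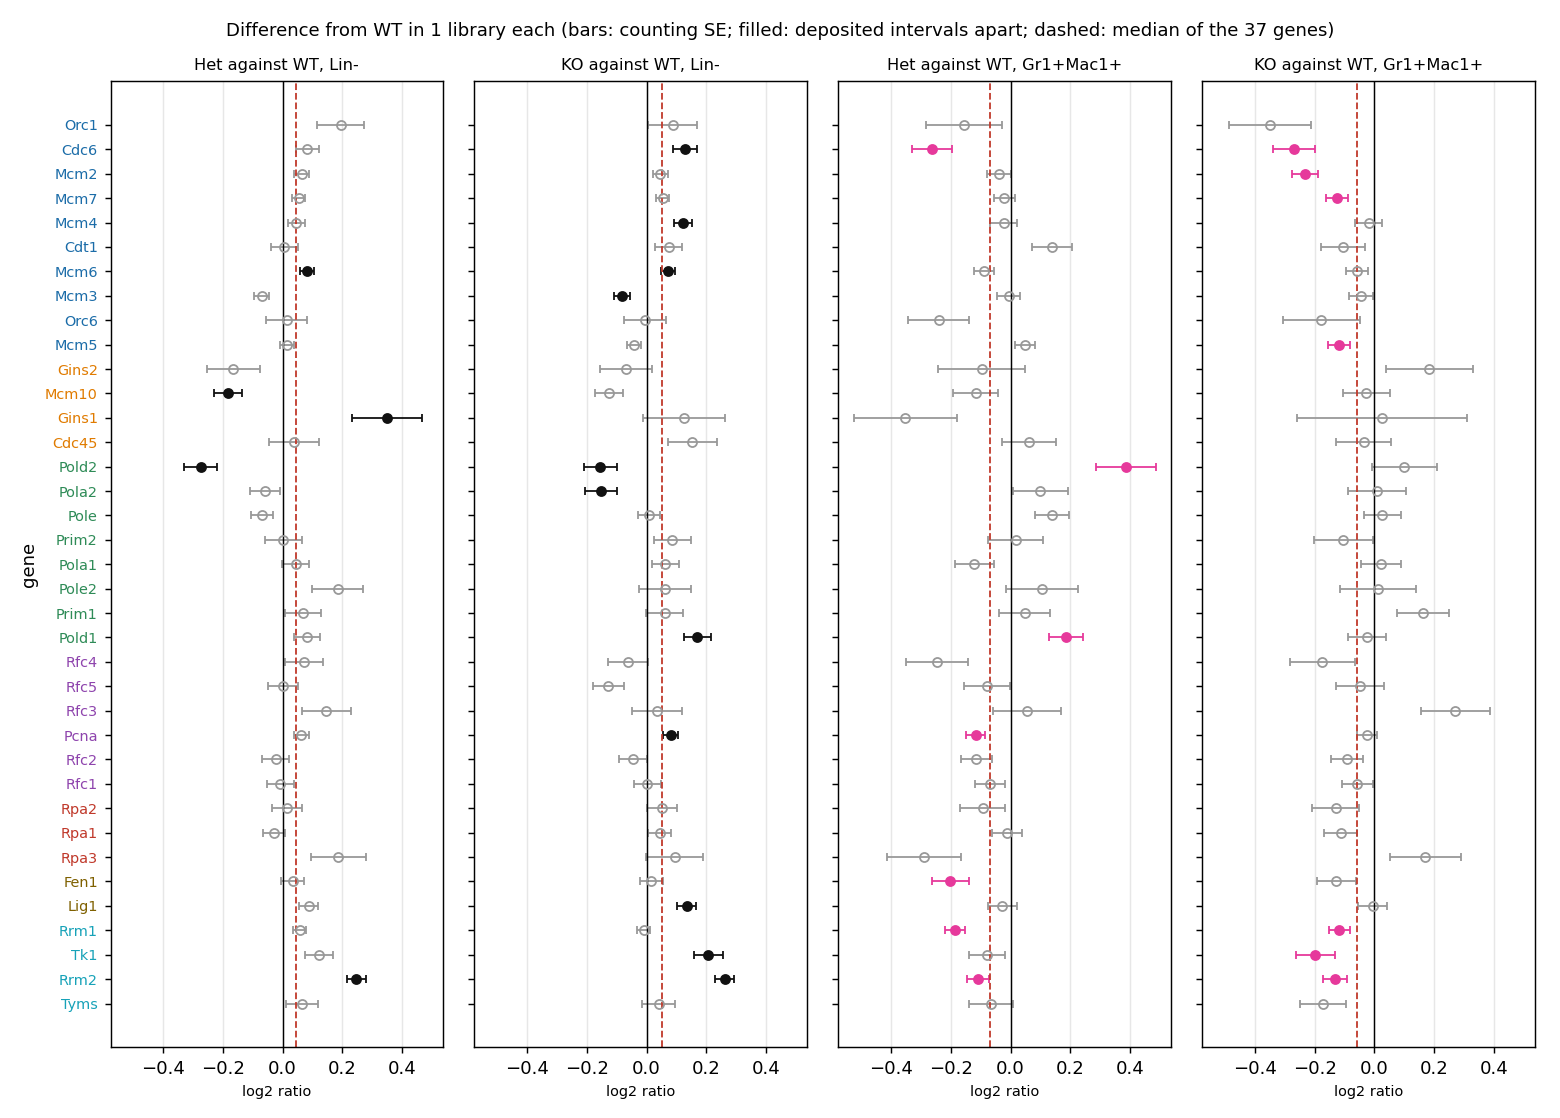
Log2 ratio to WT of each of the 37 replication genes in the Het and KO libraries of both fractions, with counting error as bars; filled points have deposited intervals apart and the dashed line is the median of the 37. No ratio reaches 0.4 in size, and the medians are 0.05 and 0.05 in Lin- and -0.07 and -0.06 in Gr1+Mac1+ for Het and KO.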

How the data were processed

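RNA-seq tables of 6 libraries were used, 3 genotypes in 2 fractions. Per the file headers, the authors deposited an FPKM per locus, with its bounds and a status. TopHat2 2.0.7 and Cufflinks 2.0.2 were used on build mm10, per the submitters' processing notes; the sources used here give neither the annotation nor the strand setting. Bounds were read as 2 SDs either side, which gave implied fragments (62.8 to 64.0% of values under 50 whole within 0.05).

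The comparison of the fractions used log2(FPKM + 1) in limma 3.58.1 under R 4.3.3, the pool being a block and trend set, over 11489 loci with mean FPKM of at least 1 and status OK; all 37 members passed. Fold changes on this scale understate low genes. The rest was done in Python 3.11.15 with pandas 2.3.3, numpy 2.4.6 and matplotlib 3.10.9. The limma script was tested on simulated data. The pairing comes from the labels' protocols, since both fractions of a genotype are from the same mice; deviations of the 2 fractions correlated by 0.10 (WT), -0.06 (Het) and -0.01 (KO). Alternatives were pseudocounts of 0.1 and 5, other filters, centring on the median ratio, no block, each pool left out, and 1.5-fold or 3-fold or no interval criterion between genotypes.

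The members and gene lists were chosen with earlier results of these data known. Genes named were the highest and lowest ratios of each role group, the 3 highest and lowest in each genotype comparison and list, and members of compared complexes; members with intervals apart between genotypes, and the remaining members, were added after their values were seen. Ticrr and Ly6g were not matched, Hba-a1 had several loci, and 1 erythroid marker is not reported here. Exon overlaps were read from GENCODE and motifs from RefSeq (GRCm38.p6). Further marker lists (B lineage, T and NK, megakaryocyte, monocyte, stromal and endothelial) had summed FPKM of 26.4 to 39.5, 34.0 to 41.9, 223 to 456, 27.2 to 54.6 and 402 to 769 in Lin-, and 318 to 378, 169 to 195, 38.8 to 53.2, 478 to 519.7 and 29.9 to 46.2 in Gr1+Mac1+; promyelocyte genes summed to 316 to 443 and 3693 to 4378.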

Additional observations from a re-analysis of the deposited data

Results flagged for a closer look

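Some of the 37 genes differed from WT in opposite directions in the 2 fractions, with deposited intervals apart in both. The share of all loci that did so was not counted, and the intervals of these deeply covered genes part more readily. The cases below are thus not shown to be more frequent among the 37 than elsewhere. Each fraction holds 1 library per genotype, so none of these differences was tested, and Rrm2 enters for Het and KO against the same WT libraries. The value given is the log2 ratio to WT in Lin- minus that in Gr1+Mac1+. For KO it was 0.40 for Cdc6 (0.13 in Lin- and -0.27 in Gr1+Mac1+), 0.40 for Tk1 (0.21 and -0.20) and 0.39 for Rrm2 (0.26 and -0.13). For Het it was 0.35 for Rrm2 (0.25 and -0.11) and -0.66 for Pold2 (-0.27 and 0.39). The median over the 37 replication genes differed by 0.11 for KO (0.05 and -0.06) and by 0.11 for Het (0.05 and -0.07).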

How the results depend on the processing

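All 37 replication genes stayed called higher in Lin- with a pseudocount of 0.1 or 5, with no filter, with a mean FPKM of at least 5, and with each pool left out in turn. Their median log2 ratio of 1.30 became 1.14 with a pseudocount of 5 and 0.97 with centring on the median ratio, and ranged from 1.26 to 1.31 with a pool left out; the pools' own medians have an SD of 0.034. Centring also ended the calls of Cdc45 (0.06), Rfc1 (0.11) and Rfc2 (0.16), since it subtracts the shift of all loci. Without the replicate block, which pairs the fractions of a pool, the count was 37 and the median 1.30, so the pairing changed no call among the 37. The 4 counts by size stayed at 0 under every alternative run (48 counts). With no log2 ratio of the 37 above 0.39 in size, below even the 1.5-fold limit, the alternatives had little room to change them. All 20 genotype medians under alternatives kept their direction. Wide deposited intervals limit the genotype ratios of Orc1, Gins1 and other low genes, whose counting errors exceed 0.1 in Gr1+Mac1+.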
